A study of Homo sapiens with 12 samples.

Results

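The genes described here build cholesterol, bring it into the cell or store it, and set how much of it is made. They are 28 genes listed by name: 19 enzymes from acetoacetyl-CoA to cholesterol, 5 genes of the SREBP control system, and 4 genes of uptake, transport and storage. All 28 passed the filter on low values (1 or more in 3 or more libraries), and they are 28 of the 18648 genes tested and of the 57773 rows in the deposited table. The libraries came from A498, an established human kidney carcinoma line, and all cells were transfected. The control group received a control siRNA, the siELOVL2 group an siRNA treatment against ELOVL2, the siELOVL5 group one against ELOVL5, and the double-knockdown group the treatments against both genes, with 3 libraries per group that the labels call biological replicates. ELOVL2 and ELOVL5 are elongases that lengthen polyunsaturated fatty acids. Only 1 cell line was used, and the labels put all 12 libraries in 1 batch. No siRNA sequence or harvest time is stated, nor whether replicates were separate transfections, so p-values measure the spread between these libraries.

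Cholesterol is made from acetyl-CoA through mevalonate, isoprenoid units, squalene and lanosterol, and the last steps rearrange and reduce the sterol ring. Most genes of this route are switched on together by SREBP2, a transcription factor encoded by SREBF2 that is made as a precursor in the endoplasmic reticulum membrane. When membrane sterol is low, the escort protein SCAP carries the precursor to the Golgi, where it is cut and freed. When sterol is plentiful, SCAP is held back by INSIG1 and INSIG2. SREBF1 encodes SREBP1, which acts more on fatty acid genes and is restrained by polyunsaturated fatty acids, the class of lipid that ELOVL2 and ELOVL5 lengthen. SREBP factors bind sterol regulatory elements, usually beside a CCAAT box bound by the factor NF-Y.

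Promoters of 5 genes are shown because the text below turns on them. SREBF2 is the gene of the main factor, HMGCS1, MSMO1 and STARD4 were the genes with the largest excess in a single library, and SCAP was the gene called after knockdown. Each window runs from 250 bases before to 50 after an annotated transcription start, 5′ to 3′ on the gene's strand, from RefSeq on GRCh38.p14. Capitals mark CCAAT on either strand (ATTGG where it lies on the other strand) and the motif TCACNCCAC, also on either strand. The latter is a form of the sterol regulatory element in which only the base N is free. Elements that differ from it at another base were not searched for. HMGCS1 has 2 windows in the table, and the one with more CCAAT boxes is printed.
SREBF2 (chr22:41832855-41833154, plus strand): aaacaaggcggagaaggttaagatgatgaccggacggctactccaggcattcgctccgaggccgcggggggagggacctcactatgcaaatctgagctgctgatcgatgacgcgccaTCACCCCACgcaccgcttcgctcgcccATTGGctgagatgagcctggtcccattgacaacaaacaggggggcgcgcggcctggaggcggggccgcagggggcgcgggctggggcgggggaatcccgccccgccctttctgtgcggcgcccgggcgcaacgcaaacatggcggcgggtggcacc
HMGCS1 (chr5:43313363-43313662, minus strand): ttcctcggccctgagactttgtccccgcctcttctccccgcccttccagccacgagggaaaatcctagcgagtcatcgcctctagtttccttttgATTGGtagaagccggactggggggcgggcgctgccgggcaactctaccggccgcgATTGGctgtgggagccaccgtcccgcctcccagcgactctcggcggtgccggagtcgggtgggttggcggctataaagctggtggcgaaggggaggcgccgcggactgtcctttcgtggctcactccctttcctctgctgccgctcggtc
MSMO1 (chr4:165327419-165327718, plus strand): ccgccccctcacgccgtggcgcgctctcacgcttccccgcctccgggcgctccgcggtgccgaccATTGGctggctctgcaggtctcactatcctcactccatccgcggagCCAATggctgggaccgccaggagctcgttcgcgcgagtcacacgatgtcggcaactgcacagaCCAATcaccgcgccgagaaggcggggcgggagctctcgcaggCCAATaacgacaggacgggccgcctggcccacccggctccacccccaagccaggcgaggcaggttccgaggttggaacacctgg
STARD4 (chr5:111512486-111512785, minus strand): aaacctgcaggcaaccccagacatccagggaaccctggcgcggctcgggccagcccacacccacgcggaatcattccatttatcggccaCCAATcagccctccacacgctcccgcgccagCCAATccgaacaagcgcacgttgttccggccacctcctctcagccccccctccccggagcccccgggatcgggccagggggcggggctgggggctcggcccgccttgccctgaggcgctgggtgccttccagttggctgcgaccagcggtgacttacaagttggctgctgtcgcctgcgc
SCAP (chr3:47475892-47476191, minus strand): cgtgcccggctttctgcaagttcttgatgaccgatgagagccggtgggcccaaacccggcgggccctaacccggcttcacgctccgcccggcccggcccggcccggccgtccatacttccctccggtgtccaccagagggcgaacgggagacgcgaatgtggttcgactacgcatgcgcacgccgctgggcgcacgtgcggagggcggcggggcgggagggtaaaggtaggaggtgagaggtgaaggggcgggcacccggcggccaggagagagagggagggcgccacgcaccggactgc

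Of the 28 genes, 25 had a promoter window under their symbol, 31 windows in all. CCAAT was found on either strand in 20 of the 31 windows (64.5%), against 34.6% of all 35116 windows of the same length, and 13 held it at least 2 times (10.8% of all windows did). By gene, 18 of 25 had a window with CCAAT, and the 7 without one were CYP51A1, INSIG2, LBR, NPC1, PMVK, SCAP and SREBF1. MVK and NSDHL held 5 each. TCACNCCAC was found in 1 member window, that of SREBF2, starting 133 bases before the start site, and in 1.13% of all windows. It does not overlap the CCAAT box there. These are matches of letters and not measured binding. In the sequences above, the SREBF2 window therefore carries both motifs, HMGCS1 and STARD4 carry 2 CCAAT boxes each, MSMO1 carries 4, and SCAP carries neither motif.

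**Figure D1:**
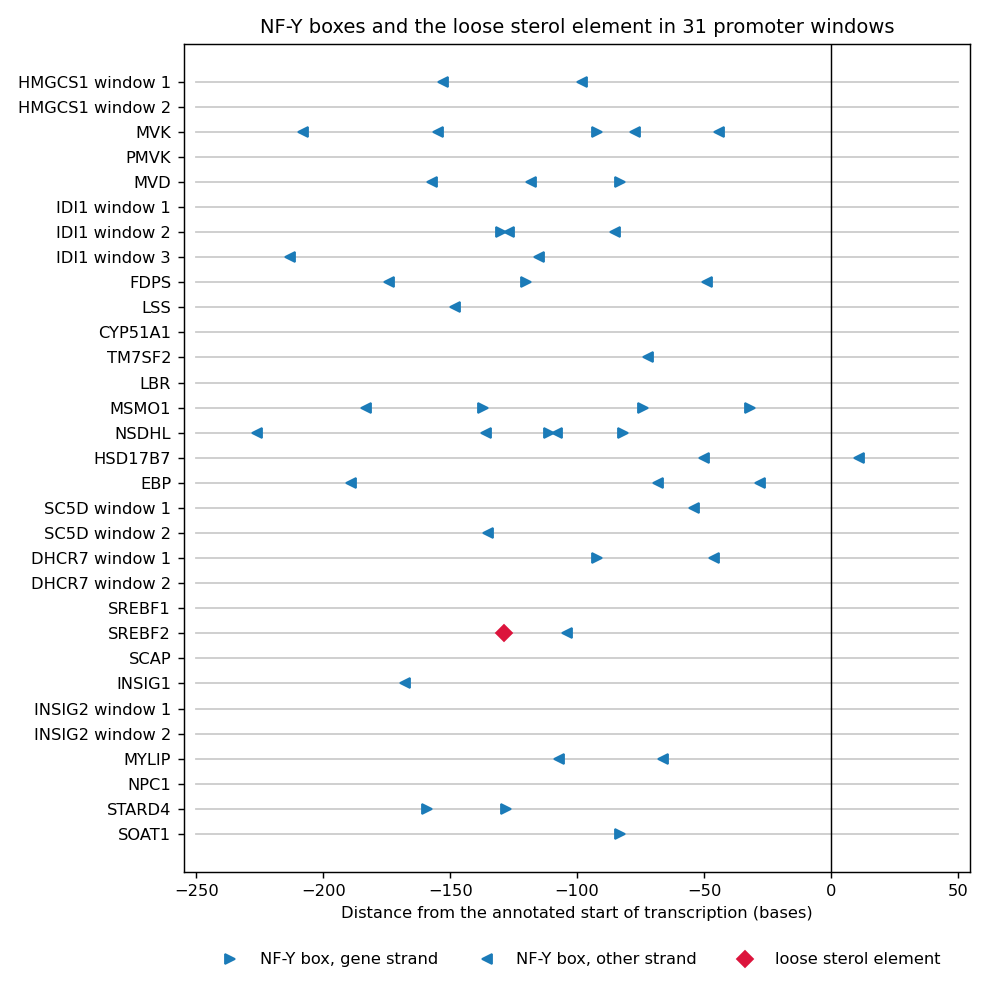
Positions of CCAAT and of TCACNCCAC in the 31 promoter windows of 25 genes. Triangles mark CCAAT, named NF-Y box in the key, and point right on the gene's strand and left on the other. The diamond marks TCACNCCAC, named loose sterol element in the key, although only its base N is free. The x axis is the distance in bases from the annotated transcription start. The diamond appears for SREBF2 alone, and the rows of SCAP, SREBF1, PMVK and NPC1 are empty.

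The deposited values are normalized read counts, called normalized counts here, and each library totals 8.53 M. Depth before normalization, estimated from the order of tied low values, was 6.70 to 10.7 M reads. Both targets were lowered wherever their siRNA was used: ELOVL2 stood at 269.9 ± 50.7 (SD, n = 3) in control, 25.2 ± 6.05 in siELOVL2 and 23.9 ± 3.53 in double-knockdown cells, and ELOVL5 at 1977 ± 53.2, 148 ± 7.43 in siELOVL5 and 179 ± 7.50 in double-knockdown cells. All 6 listed genes of renal epithelial carcinoma (PAX8, PAX2, KRT8, KRT18, VIM and CA9) were above 0 in all libraries, CA9 at 2.08 to 29.1. In control, siELOVL2, siELOVL5 and double-knockdown cells, mean VIM was 21271, 15105, 18621 and 14364, and mean KRT8 6169, 7522, 5494 and 7518. Of the leukocyte genes, CD3E was at 0 in all 12 libraries, PTPRC reached at most 2.83 and CD14 lay between 0.833 and 9.67. The fibroblast genes DCN and LUM were at 0 in 11 and 12 libraries, and with PDGFRB that list summed to 7.92 to 36.6. The endothelial genes CDH5 and VWF summed to 3.42 to 7.17 in siELOVL2 cells and at most 2.83 in the other groups; the part of these in any result was not tested. One library stood apart: in siELOVL5 replicate 3, 16.7% of the 9183 genes with a mean of at least 100 lay more than 0.5 on the log2 scale from the mean of the other libraries of its group, against 0.272% to 8.65% in the other 11. Results that rest on that library are given with and without it.

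Many of the sterol genes were high in the same libraries. In siELOVL5 replicate 3, 21 of the 28 genes held their highest value of all 12 libraries. Of all tested genes 15.6% did, and 19.0% of the 9183 genes with a mean of at least 100. The median gene of the 28 was 0.71 higher there on the log2 scale than the mean of its 2 group mates, and the median of those 9183 genes was -0.05. A smaller excess was seen in the other libraries numbered 3. For 18 of the 28 genes, and 15 of the 19 enzymes, the library numbered 3 was the highest of its group in all 4 groups. Of all tested genes 5.73% held this pattern, and 8.32% of the 9183. In the groups other than siELOVL5 alone this held for 19 of the 28 (11.7% of all, 17.3% of the 9183). The library numbered 1 was the lowest of its group in all 4 groups for 11 (5.16% of all, 8.04% of the 9183). Over the 19 enzymes, the median log2 difference from the control mean was -0.23, -0.05 and 0.30 in control replicates 1, 2 and 3. It was -0.10, 0.04 and 0.30 in siELOVL2 cells, -0.22, 0.03 and 0.71 in siELOVL5 cells, and -0.05, -0.02 and 0.20 in double-knockdown cells. The labels do not say whether a shared number marks a shared culture, day or plate.

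**Figure D2:**
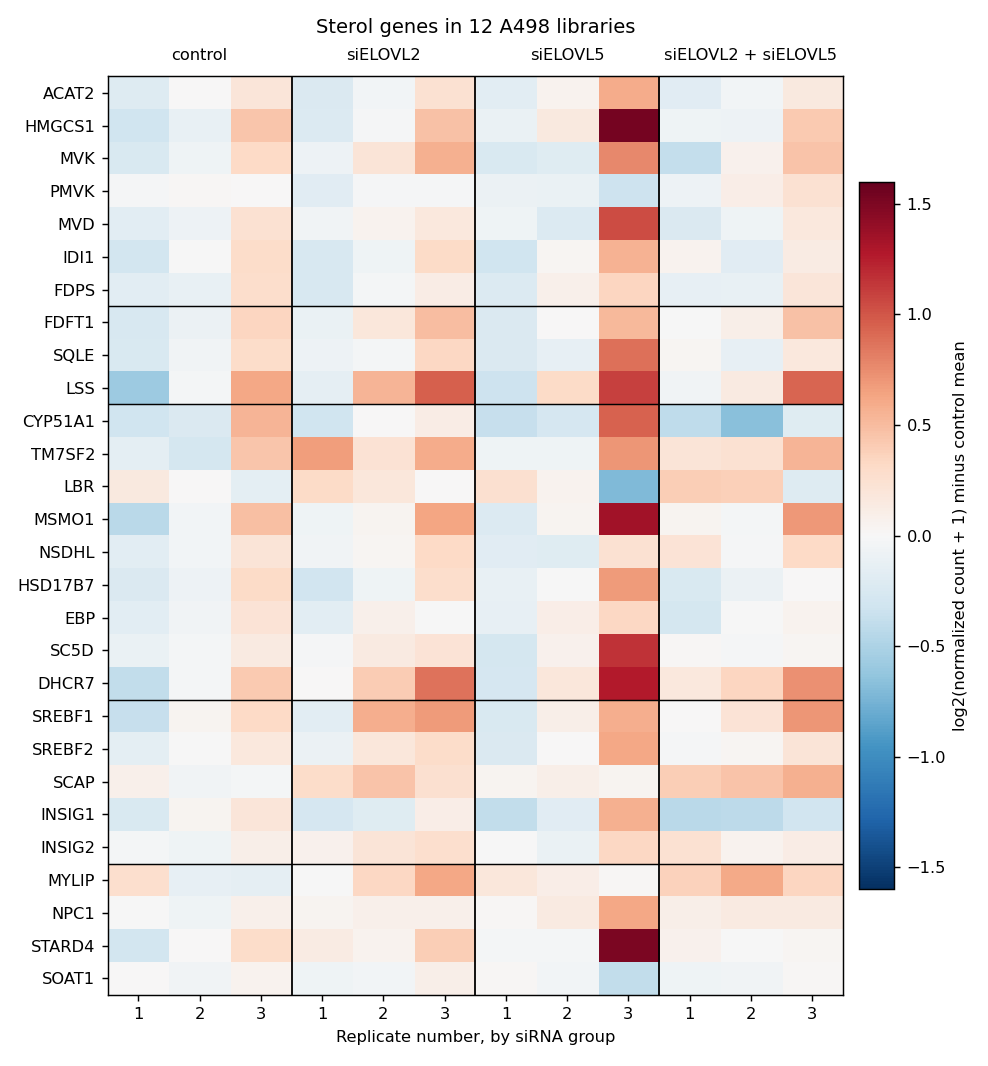
Each row is 1 of the 28 genes and each column 1 library; colour gives log2(normalized count + 1) minus the mean of the 3 controls (red above, blue below), and lines separate siRNA groups and, from top to bottom, mevalonate enzymes, squalene and lanosterol enzymes, later enzymes, SREBP control, and uptake, transport and storage. The column of siELOVL5 replicate 3 is the reddest, at a median of 0.71 for the enzymes, and the third column of every group is redder than the first.

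SCAP, the sterol sensor that escorts SREBP to the Golgi, was the only gene of the 28 that passed the test in any comparison in the fit of the 4 group means. VIM was lower and KRT8 higher on average in the same 2 groups that received the ELOVL2 siRNA, and their part in the SCAP values was not tested. The normalized counts of SCAP were 421, 383 and 388 in control replicates 1, 2 and 3, 485, 546 and 474 in siELOVL2 cells, 409, 423 and 409 in siELOVL5 cells and 524, 544 and 587 in double-knockdown cells. All 6 libraries that received the ELOVL2 siRNA were above all 6 that did not. Of all tested genes, 12% had all 3 siELOVL2 libraries above all 3 controls, and 13.4% had all 3 double-knockdown libraries above them. Against the siELOVL5 libraries these shares were 11.7% and 11.4%. The share of all genes with all 6 above all 6 was not counted. In double-knockdown cells SCAP rose by 0.47 on the log2(value + 1) scale over control (SE 0.08, limma adjusted p = 0.00597), a fold of 1.39, and it stayed called without any 1 library. It also rose over siELOVL5 cells, by 0.41 (limma adjusted p = 0.0186). That call was lost without siELOVL5 replicate 1 (0.0625), double-knockdown replicate 2 (0.0690) or 3 (0.0617), and in a fit on those groups alone (0.153). In siELOVL2 cells the difference from control was 0.33 (SE 0.08) and missed the threshold (limma adjusted p = 0.0676), but passed it without siELOVL5 replicate 3, a library outside that comparison (0.0297). In siELOVL5 cells it was 0.059 (95% interval -0.12 to 0.24), with overlapping libraries. SCAP did not share the excess of siELOVL5 replicate 3, where its level was 0.984 of the mean of its group mates.

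Neither factor gene passed the test in any comparison in that fit. SREBF1 stood at 1015, 1346 and 1631 normalized counts in control cells, 1162, 1958 and 2103 in siELOVL2, 1105, 1398 and 1958 in siELOVL5 and 1313, 1516 and 2130.5 in double-knockdown cells. The groups overlapped widely. Its log2 differences from control were 0.37 (SE 0.26, limma adjusted p = 0.591) after siELOVL2 and 0.31 (SE 0.26, limma adjusted p = 0.591) after both. SREBF2 was at 1600.5, 1787 and 2009 in control and 1521, 1806 and 2741 in siELOVL5 cells, where replicate 3 alone was above the controls, and the means of the other groups were 1965 ± 267 and 1888 ± 157 (SD, n = 3).

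INSIG1, which retains SCAP in the endoplasmic reticulum and is itself an SREBP target, had its lowest group mean in the double knockdown. It stood at 2556, 3100.4 and 3466 in control cells, 2500.1, 2631 and 3238 in siELOVL2, 2303, 2655 and 4469 in siELOVL5 and 2241, 2265 and 2438 in double-knockdown cells. The 3 double-knockdown libraries lay below all 3 controls and all 3 siELOVL2 libraries, but overlapped the siELOVL5 libraries. The log2 difference from control was -0.38 (SE 0.20) and missed the threshold (limma adjusted p = 0.325); against siELOVL2 cells it was -0.26. INSIG2, its paralog, stayed between 270.1 and 366 in all 12 libraries.

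**Figure D3:**
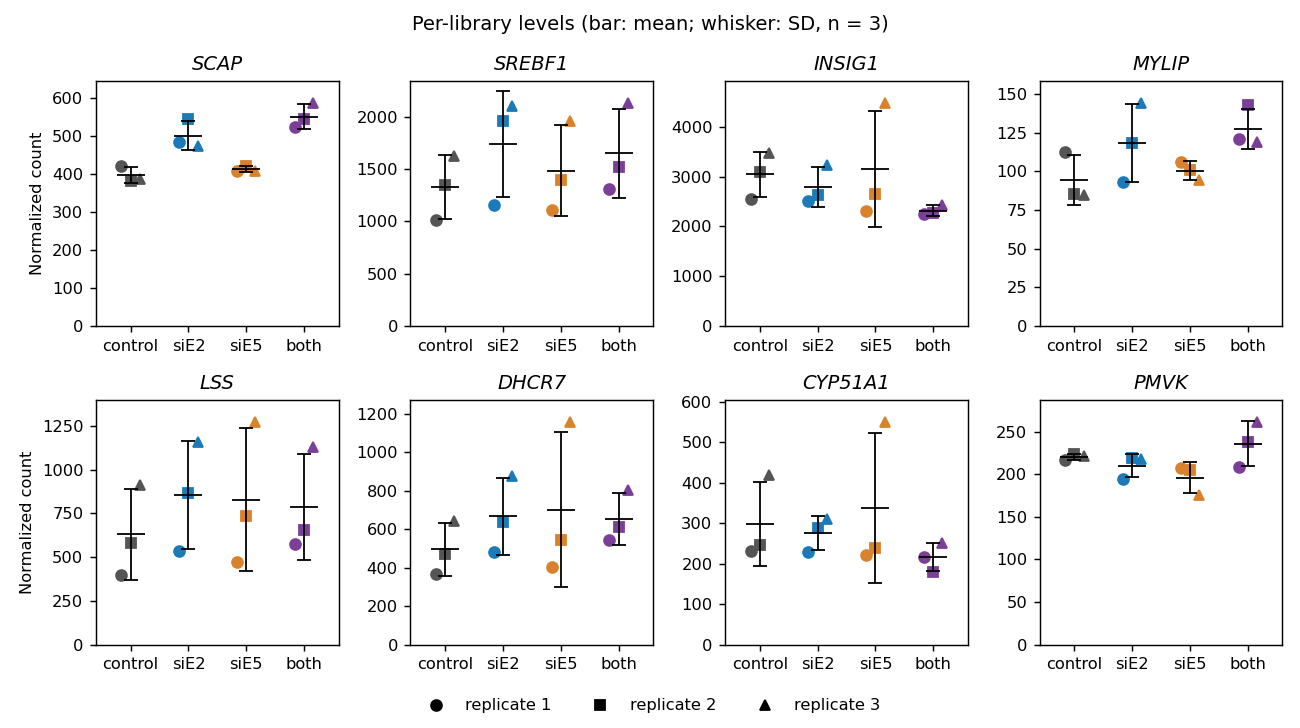
Normalized counts of 8 genes in each library, by group (control; siE2, siELOVL2; siE5, siELOVL5; both, double knockdown); symbols give the replicate number, bars the mean and whiskers the SD (n = 3). SCAP is at 474 or more in all libraries with the ELOVL2 siRNA and at 423 or less in the others, while LSS and DHCR7 spread widely within every group.

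Among the enzymes of the mevalonate and isoprenoid stage, no gene passed the test in any comparison. HMGCS1, which makes HMG-CoA and is a strong SREBP2 target, was at 1032, 1192 and 1752 in control cells, 1106, 1273 and 1788 in siELOVL2, 1202, 1442 and 3739 in siELOVL5 and 1232, 1220.2 and 1720.3 in double-knockdown cells. The single value of 3739 in siELOVL5 replicate 3 was 2.83 times the mean of its group mates, and the other 11 libraries spanned 1032 to 1788. The log2 difference of siELOVL5 from control was 0.53 (SE 0.35, limma adjusted p = 0.651) with that library and 0.028 without it. MVD, the decarboxylase that ends the mevalonate steps, was also high in that library: 411, 370.3 and 891 in siELOVL5 cells against 382, 407 and 511 in control cells, a log2 difference of 0.26 with and -0.14 without replicate 3.

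PMVK is phosphomevalonate kinase. It stood at 217, 224 and 221 in control cells, 194, 219 and 218 in siELOVL2, 208, 205 and 176 in siELOVL5 and 209, 238 and 262 in double-knockdown cells, so that siELOVL5 replicate 3 held its lowest value and double-knockdown replicate 3 its highest. All siELOVL5 libraries lay below all controls and all double-knockdown libraries. The double knockdown was 0.26 above siELOVL5 (unadjusted p = 0.0303, limma adjusted p = 0.224), which did not pass. The other enzymes of this stage are the thiolase ACAT2, the mevalonate kinase MVK, the isomerase IDI1 and the farnesyl diphosphate synthase FDPS. None was called, and all 4 had their highest value in siELOVL5 replicate 3. FDPS has pseudogenes in the table, all at 0.

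The next 3 enzymes turn farnesyl diphosphate into lanosterol. LSS, which closes the ring system, was at 397, 581 and 909.8 in control cells, 537, 867 and 1158 in siELOVL2, 472, 738 and 1274 in siELOVL5 and 573, 654 and 1132 in double-knockdown cells. The groups overlapped and no difference from control passed the test. They were 0.45 (SE 0.39, limma adjusted p = 0.671) after siELOVL2 and 0.34 (SE 0.39, limma adjusted p = 0.714) after both. After siELOVL5 it was 0.36 (limma adjusted p = 0.810), and -0.0098 without replicate 3. FDFT1, squalene synthase, was 0.19 above control after siELOVL2 (limma adjusted p = 0.758). SQLE, squalene epoxidase, was at 1572, 1686 and 3406 in siELOVL5 cells, and 3406 was its highest value; the other 11 libraries lay between 1552 and 2310.

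Of the 9 enzymes after lanosterol, DHCR7 and CYP51A1 differed most between double-knockdown and control cells, in opposite directions and without a call. DHCR7, the reductase of the last step, was at 368, 474 and 643 in control cells, 483, 637 and 879 in siELOVL2, 401, 545 and 1159 in siELOVL5 and 543, 614 and 802 in double-knockdown cells. Its differences from control were 0.42 after siELOVL2 (limma adjusted p = 0.634) and 0.42 after both (adjusted p = 0.565); after siELOVL5 it was 0.39, and -0.044 without replicate 3. CYP51A1, which removes the methyl group at carbon 14 of lanosterol, was at 230.2, 245 and 418 in control cells, 229.6, 288 and 310.0 in siELOVL2, 221, 237 and 549.9 in siELOVL5 and 217, 180.1 and 251 in double-knockdown cells. The double-knockdown libraries overlapped the controls, and the difference was -0.42 (SE 0.31, limma adjusted p = 0.519). Of its pseudogenes in the table, none exceeded 0.833.

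MSMO1 and SC5D, oxidases of the same stage, were other genes with a single high library. MSMO1 was at 1186, 1429 and 3504 in siELOVL5 cells against 1026, 1339 and 1933 in control cells, and the log2 difference went from 0.39 to -0.089 without replicate 3. SC5D was at 174, 223 and 475 against 196, 207 and 235, and the difference went from 0.32 to -0.11. LBR, a sterol reductase that also anchors chromatin at the nuclear envelope, ran the other way, at 1886, 1645 and 968 in siELOVL5 cells, where replicate 3 was the lowest of the 12, and 1749.6, 1588 and 1408 in control cells. In all 4 groups the library numbered 1 was its highest and the one numbered 3 its lowest. TM7SF2, the other reductase of that step, had low counts, at 16, 14.6 and 24.9 in control, 29.3, 21.3 and 27.7 in siELOVL2, 17.1, 17.2 and 30.1 in siELOVL5 and 21, 21.6 and 26.7 in double-knockdown cells. The groups overlapped, also for siELOVL2 against control (0.50, SE 0.29, limma adjusted p = 0.492). NSDHL, HSD17B7 and EBP, which act on the ring before the final reductions, had differences from control between -0.11 and 0.18, none called. A pseudogene of HSD17B7 reached 5.58 and the antisense row of STARD4 2.67, and since the strand setting is not stated, reads shared with such rows cannot be told apart.

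Among the genes of uptake, transport and storage, MYLIP was higher in the double knockdown without passing the test. MYLIP encodes IDOL, a ubiquitin ligase that marks lipoprotein receptors for breakdown and is induced by sterol-sensing LXR receptors. Its counts were 113, 85.5 and 84.5 in control cells, 93.4, 118 and 144 in siELOVL2, 106, 101 and 94.4 in siELOVL5 and 121, 143 and 119 in double-knockdown cells. The double-knockdown libraries lay above all controls and all siELOVL5 libraries, with a log2 difference from control of 0.44 (SE 0.17, unadjusted p = 0.0223, limma adjusted p = 0.175). After siELOVL2 it was 0.32, with overlap.

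NPC1, which moves cholesterol out of lysosomes, was at 2059, 1978 and 2184 in control and 2099.8, 2289 and 3184 in siELOVL5 cells. The difference of 0.26 (unadjusted p = 0.0474, limma adjusted p = 0.517) became 0.081 without replicate 3. In double-knockdown cells it was at 2208, 2299 and 2289, above all controls and all siELOVL2 libraries, by 0.13 over control (limma adjusted p = 0.628). STARD4, a carrier of sterol between membranes, had the largest single-library excess of the 28 genes: 273, 272 and 791 in siELOVL5 cells, or 2.90 times the mean of the other pair, while the other 11 libraries spanned 227 to 365. Its difference from control was 0.48 with that library and -0.030 without it. SOAT1, which esterifies cholesterol for storage, was at 1615, 1543 and 1212, so its lowest value of the 12 was in the same library; it lay between 1516.5 and 1699 in the others.

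Counted over all 28 genes, the calls were few in each comparison. After siELOVL2, limma called 0 of 28 (1.36% of all tested genes were called), 1 had an unadjusted p under 0.05 (13.7% of all), and 19 lay above control with a median log2 difference of 0.11, against 52.9% of all genes above and a median of 0.02. After siELOVL5 it called 0 of 28 (0.139% of all), 1 had an unadjusted p under 0.05 (9.56% of all), and 23 lay above control with a median of 0.12. Without siELOVL5 replicate 3 that count turned to 5 above and 23 below, with a median of -0.07. Of all genes, 48.7% lay above control with that library and 51.1% without it. The controls kept their own replicate 3, where the enzymes had a median of 0.30 above the control mean. The groups then differed in replicate number as well as siRNA, and the part of this in the turn was not tested. In siELOVL5 replicates 1 and 2, log2 differences from the control of the same number were of either sign. They were above 0 for HMGCS1 (0.22 and 0.28), DHCR7 (0.13 and 0.20), MSMO1 (0.21 and 0.094) and LSS (0.25 and 0.34). They were also above 0 for ACAT2, FDFT1, TM7SF2, LBR, HSD17B7, EBP, SREBF1, NPC1 and SOAT1. For CYP51A1 they were below 0 (-0.056 and -0.045), as for MVK, PMVK, NSDHL and INSIG1. For STARD4 (0.26 and -0.033), SC5D (-0.17 and 0.10), MVD (0.10 and -0.14) and the remaining members they were mixed. After both siRNAs 1 of 28 was called, SCAP (4.42% of all), 2 had an unadjusted p under 0.05 (18.8% of all), and 19 lay above control with a median of 0.08. Without siELOVL5 replicate 3 limma called 1, 0 and 1 of 28 in these 3 comparisons (SCAP after siELOVL2 and after both), and 4.49%, 0.222% and 9.64% of all tested genes. The 3 comparisons share the 3 control libraries, so their values are given side by side. In bulk RNA, fewer cells with a transcript and less of it per cell cannot be told apart.

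**Figure D4:**
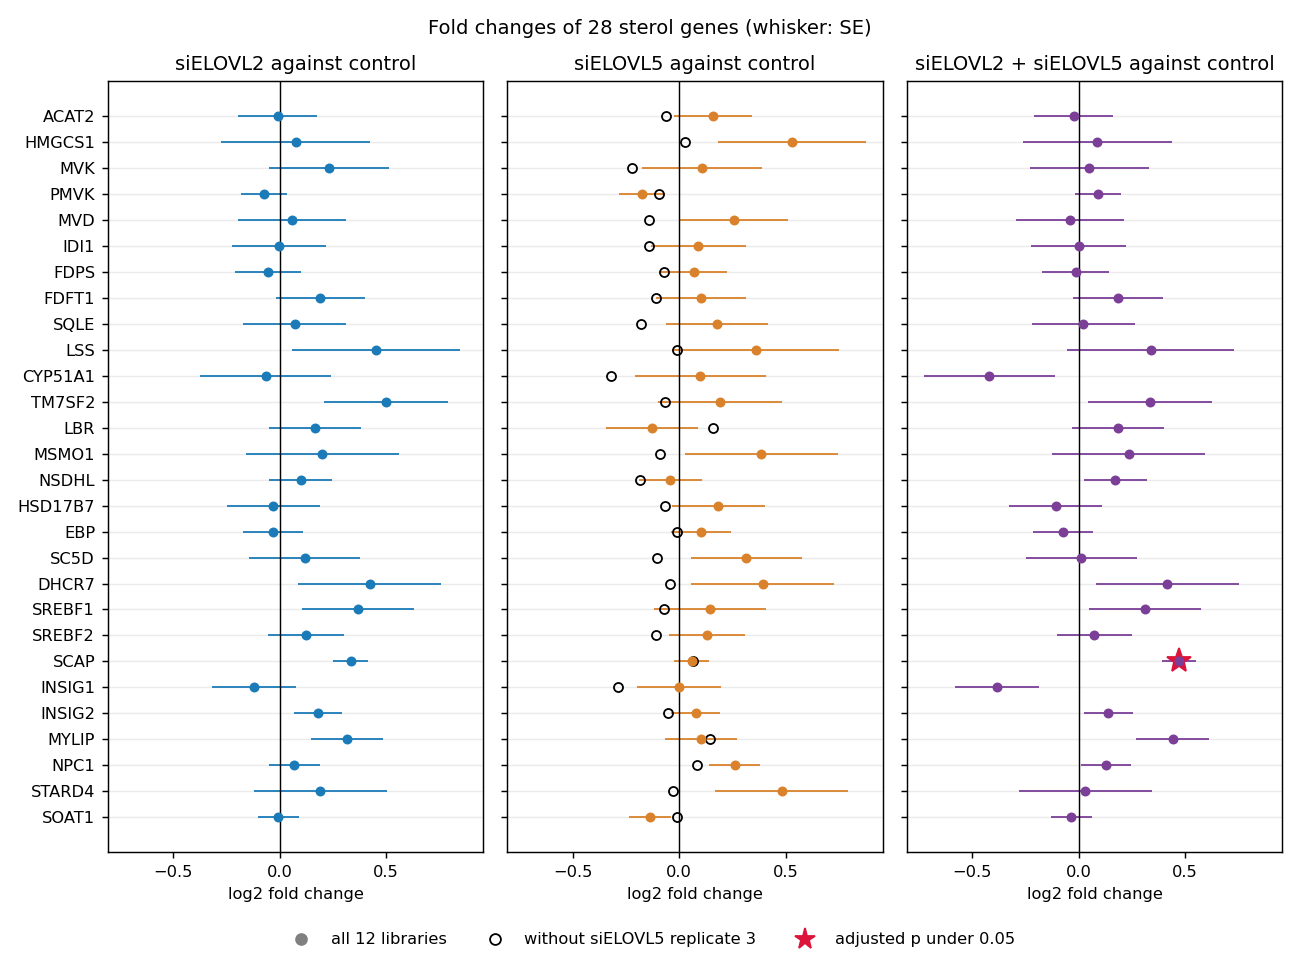
Log2 fold changes of the 28 genes against control (points, all 12 libraries; whiskers, SE) for each knockdown, with open circles for siELOVL5 without its replicate 3 and a star for an adjusted p under 0.05. The star marks SCAP in the double knockdown at 0.47, and in the middle panel most open circles lie to the left of the filled points, 23 of 28 below 0. The open circles leave out replicate 3 of siELOVL5 but not of control.

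Direct comparisons between knockdowns gave 1 call. Double knockdown against siELOVL5, which asks what adding the ELOVL2 siRNA does, gave SCAP as the 1 of 28 (2.77% of all tested genes were called), with 2 at an unadjusted p under 0.05 (17.4% of all). Double knockdown against siELOVL2 gave 0 of 28 (0.059% of all), with 0 at an unadjusted p under 0.05 (3.6% of all). SCAP was 0.14 higher there (95% interval -0.04 to 0.31). SiELOVL2 against siELOVL5 gave 0 of 28 (3.01% of all), with 1 at an unadjusted p under 0.05 (17.2% of all), which was SCAP at 0.28 (limma adjusted p = 0.0929). For the interaction, which tests whether both siRNAs together differ from the sum of each alone, limma called 0 of 28 and 0% of all genes, and 1 of 28 had an unadjusted p under 0.05 (2.8% of all). That gene was PMVK at 0.34 (unadjusted p = 0.0471, limma adjusted p = 0.996). STARD4 and HMGCS1 had interaction values of -0.64 and -0.52, which were -0.13 and -0.014 without siELOVL5 replicate 3. SCAP was at 0.079 (95% interval -0.17 to 0.33).

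Without siELOVL5 replicate 3, double knockdown against siELOVL2, double knockdown against siELOVL5 and siELOVL2 against siELOVL5 gave 0, 1 and 0 of 28 called, with 0.0867%, 4.28% and 3.87% of all tested genes. Genes above siELOVL5 went from 11 to 23 of 28 in the double knockdown and from 13 to 26 in siELOVL2 cells. Of all genes, 51.3% lay above siELOVL5 without that library in each of these comparisons. The double-knockdown and siELOVL2 groups kept their replicate 3, so the groups differed in replicate number as well as siRNA. The part of this in the counts was not tested.

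Groups that did not overlap are a description that needs no model. Against control, SCAP lay above in all siELOVL2 libraries (12% of all genes did) and no member lay below (10.4%). No member lay above in all siELOVL5 libraries (6.07%), and PMVK lay below (7.04%). SCAP, MYLIP and NPC1 lay above in all double-knockdown libraries (13.4%), and INSIG1 below (11.4%). Between double knockdown and siELOVL2, NPC1 lay above (4.53%) and INSIG1 below (4.33%). Between double knockdown and siELOVL5, PMVK, SCAP and MYLIP lay above (11.4%) and none below (7.43%), and between siELOVL2 and siELOVL5, SCAP lay above (11.7%) and none below (8.36%). As a share of 28, each of these counts was below the share of all genes, and that difference was not tested.

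Genes around the pathway were counted from 4 further lists. Of 13 partners of sterol regulation (proteases that cut SREBP, ligases and adaptors that degrade sterol-regulated proteins, and NF-Y and SP1), limma called 1, lower, in double-knockdown against control cells (4.42% of all genes were called) and 1, higher, in double-knockdown against siELOVL5 cells (2.77% of all genes). The first was FAF2, an adaptor of endoplasmic reticulum-associated degradation, at 926, 1012 and 1011 against 1197, 1162 and 1231 (-0.28, SE 0.07, limma adjusted p = 0.0398). Its call was lost without any 1 control, siELOVL2 or double-knockdown library (0.0545 to 0.141). The second was MBTPS1, the site-1 protease that makes the first cut in SREBP, at 1928, 1918 and 1978 against 1536.5, 1712 and 1506 (0.29, SE 0.07, limma adjusted p = 0.0394). It stayed called only without siELOVL2 replicate 3, siELOVL5 replicate 2 or siELOVL5 replicate 3 (0.0295 to 0.0469), and was lost without any 1 of the other 9 libraries (0.0548 to 0.114). Of 15 other SREBP targets and lipogenic genes, 18 tested genes of uptake, transport and efflux, and 12 of the isoprenoid branch, limma called 0 in each of the 7 comparisons; at an unadjusted p under 0.05 there were 3, 3 and 0 after siELOVL2 (13.7% of all genes), 1, 3 and 1 after siELOVL5 (9.56%), and 3, 2 and 1 after both (18.8%).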

How the data were processed

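RNA was sequenced from A498 cells as paired-end 36-base reads on a NextSeq 500, per the labels. The deposited signal is 1 normalized value per gene and library, made by the authors; aligner, counting tool, strand setting, annotation and build: not given in the sources used here. All 12 columns hold an identical set of values, each a multiple of 1 over 12, as quantile normalization of counts gives. Reads were not recovered, so no count test was run. The log2 of value plus a pseudocount of 1 was fitted by limma 3.58.1 (R 4.3.3; tested on simulated data) to genes holding 1 or more in 3 or more libraries, with 4 group means, 8 residual degrees of freedom, a variance trend and Benjamini-Hochberg adjustment over all 18648 genes at 0.05. The simulated data held no outlying library and no effect of replicate number. Fold changes on this scale understate changes of low genes. Depth was estimated from the table order of tied low values, so it is approximate. All 28 members were named; those called, and the member of each role with the smallest p, are given by library, and others as the text needs. Of the other lists, called genes are named; some items of the lists are not reported here. The members and lists were chosen with earlier results of these data known. Alternatives were a pseudocount of 5, no filter, median-ratio scaling, a replicate block, fits on the compared groups alone and leaving out each library.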

Additional observations from a re-analysis of the deposited data

How the results depend on the processing

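Values of 35 named fold changes were recomputed under 18 other settings, 626 values in all, of which 596 kept their direction and their side of the threshold. A pseudocount of 5, no filter on low values and median-ratio scaling changed no count of called members. A fit on the compared groups alone gave 0 called members in place of 1 for double knockdown against siELOVL5. Leaving out 1 library in turn gave 0 to 1 called members for siELOVL2 against control, 1 to 1 for double knockdown against control, 0 to 1 for double knockdown against siELOVL5, and 0 to 0 for siELOVL5 against control, double knockdown against siELOVL2, siELOVL2 against siELOVL5 and the interaction. Without siELOVL5 replicate 3, some of the named siELOVL5 differences from control changed sign. These were STARD4 (-0.030), MSMO1 (-0.089), DHCR7 (-0.044), SC5D (-0.11), MVD (-0.14), LBR (0.16) and LSS (-0.0098). For STARD4, MSMO1 and DHCR7 the ranges over all left-out libraries were -0.030 to 0.74, -0.089 to 0.69 and -0.044 to 0.72. For SC5D, MVD, LBR and LSS they were -0.11 to 0.61, -0.14 to 0.49, -0.32 to 0.16 and -0.0098 to 0.70. Of the other members, HMGCS1, NPC1, SCAP, MYLIP, INSIG1, PMVK, NSDHL and SOAT1 kept their sign. The rest changed it, among them CYP51A1 (0.098 to -0.32) and SQLE (0.18 to -0.18).

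Libraries with the same replicate number deviated together only in part: the correlation of their deviations from group means over all tested genes was -0.00 to 0.21, against -0.21 to 0.06 for different numbers, and 10 of 12 libraries matched best a library of their own number. This is a hint from the data, not the design, and the numbers were not taken to pair the samples. With the replicate block, called members were 3 for siELOVL2 against control (SCAP, LSS and SREBF1, all higher, limma adjusted p = 0.0375, 0.0239 and 0.0393; 4.62% of all genes called) and 2 for double knockdown against control (SCAP and SREBF1, limma adjusted p = 0.00359 and 0.0491; 10.01% of all genes called). An alternative chosen after seeing the data, the block with siELOVL5 replicate 3 left out, gave 5 for siELOVL2 against control (with DHCR7 and FDFT1; 14.1% of all genes), 8 for double knockdown against control (with DHCR7, FDFT1, LSS and MSMO1 higher and CYP51A1 and INSIG1 lower; 20.2% of all genes), 2 for double knockdown against siELOVL5 and 2 for siELOVL2 against siELOVL5 (SCAP and DHCR7 in each; 11.8% and 11.05% of all genes). In that fit SC5D, MVD and LBR stood at -0.060, -0.044 and 0.041 after siELOVL5. STARD4, MSMO1, DHCR7 and LSS stayed above control there. The cause was not tested.

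For siELOVL2, siELOVL5 and double knockdown against control the number of all genes called was 254, 26 and 825. With the block it was 861, 99 and 1866, and with the block and siELOVL5 replicate 3 left out 2597, 316 and 3733; fits on the compared groups alone gave 412 and 1 for the first and second. Leaving out 1 library gave 63 to 829, 9 to 41 and 323 to 1779, the highest each time without siELOVL5 replicate 3 and the lowest without control replicate 2 (for siELOVL5 also without control replicate 3). For double knockdown against siELOVL2, double knockdown against siELOVL5 and siELOVL2 against siELOVL5 it was 11, 516 and 562, with the block 12, 1368 and 1317, with the block and that library left out 122, 2175 and 2038, in fits on the groups alone 1, 21 and 49, and without 1 library 2 to 16, 156 to 789 and 168 to 714. Normalized counts up to 0.917 cannot be told from 0 reads, and every value of the 28 genes was above that level.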

Other observations

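The excess in siELOVL5 replicate 3 reached some fatty acid genes that SREBP factors also control, and left others out. LPIN1, a phosphatidate phosphatase and coactivator, was at 619.8 and 819 in siELOVL5 replicates 1 and 2 and 2500.1 in replicate 3, while the other 11 libraries did not exceed 1239.8. ACSS2, an acetyl-CoA synthetase, was at 277, 332 and 699.5, and the other 11 libraries did not exceed 533. The desaturase FADS1 was at 376, 507 and 921, but another library reached 914.5. Of the 15 genes of that list, FASN, ACSS2, FADS1 and LPIN1 held their highest value of the 12 libraries there, while GPAM and FABP5 were at their lowest. In 10 of the 15 the library numbered 3 was the highest of its group in all 4 groups: FASN, ACACA, ACSS2, SCD, FADS1, FADS2, ELOVL6, LPIN1, ME1 and MID1IP1. Of all tested genes 5.73% did so, and 8.32% of those with a mean of at least 100. Among 13 regulation partners, 6, MBTPS1, RNF145, ERLIN1, ERLIN2, NFYA and SP1, were lowest in siELOVL5 replicate 3, as were 18.4% of all tested genes. In the isoprenoid branch, 3 of 12 genes were highest in that library (15.6% of all tested genes were) and 4 were lowest. Among the high ones were GGPS1 and FNTA, which make and attach isoprenoid groups, at 718 and 918, and among the low ones FNTB at 14.2. These genes were chosen after their values were seen, and no test was made.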
